A study of Oryza sativa Indica Group with 27 samples.

Results

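OsERF71-overexpressing rice (erf71) was compared with wild-type rice (WT) at 1 h after the start of dehydration (1 HAT). The comparison covered the genes that had at least 5 FPKM (fragments scaled to transcript length and library size) in 1 or both of the 2 mRNA-seq libraries, which were 15765 of the 37869 genes in the expression table. Levels were set against each other as log2((erf71 + 0.1)/(WT + 0.1)), called the log2 ratio below.

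The study asked how rice that overexpresses OsERF71 responds to dehydration at the level of transcripts. The erf71 plants carried the transgene in the cultivar Nipponbare (the labels call them AP2 transgenic), and the WT plants were Nipponbare without it. Both were grown in Yoshida solution to the three-leaf stage, dehydration was imposed by taking the solution away, and entire plants were frozen at 0, 1, and 6 HAT, the plants of 0 HAT being untreated. The promoter of the transgene, the number of transgenic lines, and the number of plants per library are not given in the sources used here. One library was made per plant type and time point, so none of the differences below has a replicate check, no p-value was computed, and every "higher" or "lower" compares single libraries.

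AP2/ERF proteins such as OsERF71 bind DNA and switch other genes on or off, and many of them act in the response to water loss. In rice that loses water, abscisic acid and jasmonate build up, and genes for transcription factors (TFs) of the AP2/ERF, NAC, bHLH, WRKY, and zinc finger families are among the first to be induced. Genes for protective proteins usually follow later, and genes for photosynthesis and growth are turned down.

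Of the 15765 genes, 956 stood at least 2-fold above WT in erf71 at 1 HAT (6.06%) and 1337 were at least 2-fold lower (8.48%). At least 4-fold differences numbered 248 genes higher and 420 lower, which were 1.57% and 2.66% of the genes. The ratios were centred near equality, with a median log2 ratio of 0.02, and all but the lowest 5% and the highest 5% lay between -1.39 and 1.12. The differences were not confined to weakly expressed genes: among 1440 genes with at least 100 FPKM in either library, 8.89% were at least 2-fold higher and 12.5% at least 2-fold lower, against 6.38% and 7.8% among 8448 genes with 5 to 20 FPKM.

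**Figure D1:**
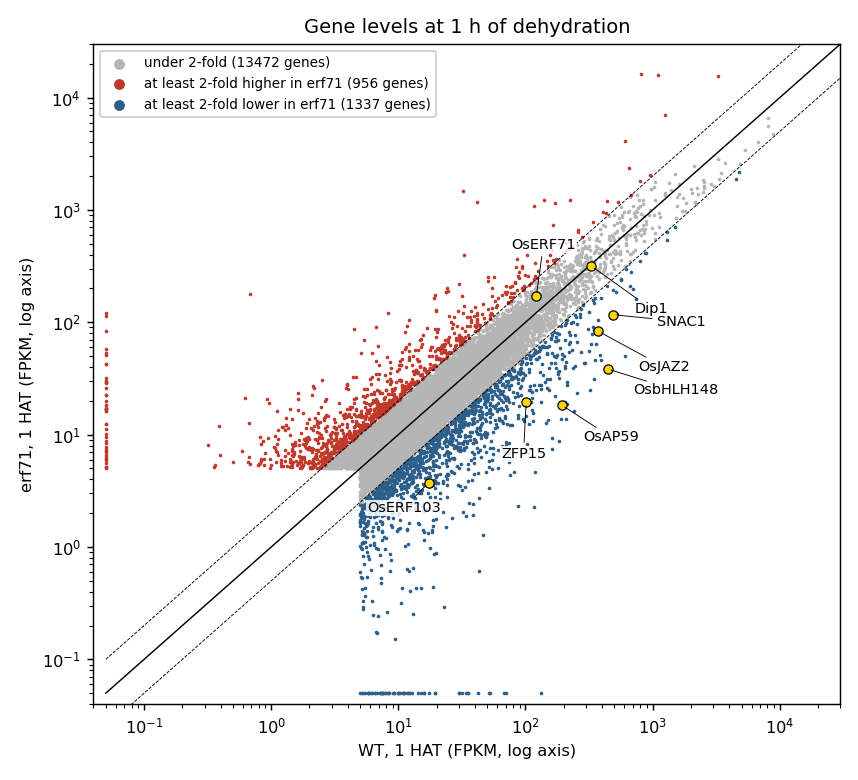
Level of each of the 15765 genes in erf71 (vertical axis) and in WT (horizontal axis) at 1 HAT, in FPKM on log axes. Values of 0 are drawn at 0.05, dashed lines mark 2-fold, and yellow points mark 8 annotated genes, of which OsbHLH148, OsAP59, SNAC1, ZFP15, OsJAZ2, and OsERF103 lie below the lower dashed line while OsERF71 and Dip1 lie between the lines.

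Fewer genes in all were past 2-fold at the other times. At 0 HAT, 15923 genes had at least 5 FPKM in either library, and 497 of them were at least 2-fold higher (3.12%) and 632 at least 2-fold lower (3.97%) in erf71. At 6 HAT, the numbers were 429 higher (3.2%) and 524 lower (3.91%) of 13405 genes. Over genes, the SD of the log2 ratio was 1.00 for the libraries of 1 HAT, 0.85 for those of 0 HAT, and 0.80 for those of 6 HAT. Whether 1 HAT differs from the other times by more than libraries of 1 condition differ could not be tested.

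**Figure D2:**
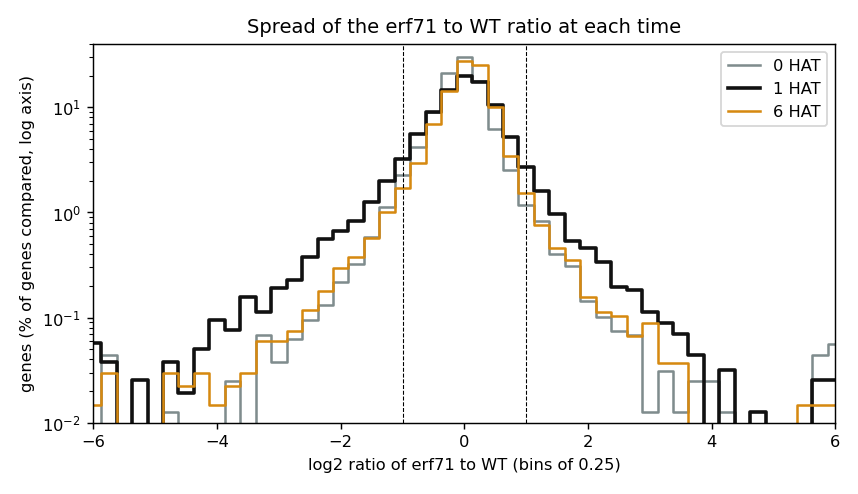
Share of genes (vertical axis, log scale) in each bin of the log2 ratio of erf71 to WT (horizontal axis, bins of 0.25) at 0, 1, and 6 HAT, over genes that reached 5 FPKM in either library of that time. The curve of 1 HAT is the widest on both sides, and 14.5% of its genes lie at or beyond 2-fold, against 7.09% at 0 HAT and 7.11% at 6 HAT.

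The FPKM values summed to 759195 in erf71 and 737471 in WT at 1 HAT, and 22021 genes in erf71 and 22171 in WT exceeded 1 FPKM. The depth of the libraries is unknown, but weakly expressed genes bear on their relative depth. Among 1205 genes with 0.03 to 0.3 FPKM in both libraries, the log2 ratios piled up at 0.02, with smaller piles about 1 unit above and below, as values of 1 or 2 fragments would give. The main pile lay at -0.24 for the libraries of 0 HAT and at 0.15 for those of 6 HAT. The side piles stood out less there. Above and below, they held 103 and 65 genes at 0 HAT, against 82 and 51 midway to the main pile. At 6 HAT they held 137 and 191, against 123 and 135, and at 1 HAT 96 and 124, against 48 and 65. The main pile was sought only near equality of the libraries, so a large difference in depth would not have shown. The 10 strongest genes held 11.0% of the sum in erf71 and 7.89% in WT at 1 HAT.

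The share of root and leaf in a library of an entire plant is not known, and fewer cells of a type and less RNA per cell cannot be told apart. Short lists of organ markers for both, assigned from general knowledge because the sources do not annotate these identifiers, were therefore read in every library. Of 6 root genes, 2 were listed at 0 in both libraries of 1 HAT, and all of the other 4 were higher in erf71, 3 of them by at least 2-fold, with log2 ratios between 0.30 and 3.85. The 6 root genes summed to 803, 405, and 76.5 FPKM in erf71 at 0, 1, and 6 HAT, against 851, 180, and 111 FPKM in WT. Both leaf genes were lower in erf71 at 1 HAT without reaching 2-fold, and their sums were 14891, 10370, and 598 FPKM in erf71, against 19123, 16783, and 705 FPKM in WT. Root genes were thus higher and leaf genes lower in erf71 at 1 HAT, and the part of this in the results below was not tested.

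OsERF71 itself (Os06g0194000) had 201, 172, and 264 FPKM in erf71 at 0, 1, and 6 HAT, against 133, 122, and 187 FPKM in WT. It was the higher of the pair at every time, by a log2 ratio of 0.50 at 1 HAT, yet never by 2-fold, and 2734 of the 15765 genes had a higher ratio at 1 HAT. Its 3 neighbours in the TF network, Os03g0701700, Os10g0346600, and Os11g0157200, had log2 ratios of 0.12, 0.16, and -0.02 at 1 HAT.

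Dip1 (Os02g0669100), a dehydration-induced gene that the study used as a marker to choose its time points, had 86.8, 317, and 3354 FPKM in erf71 at 0, 1, and 6 HAT, against 92.6, 329, and 2583 FPKM in WT. The libraries of 1 HAT therefore stood at nearly the same level of this marker, with a log2 ratio of -0.05. Many TF genes did not.

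Drought-related TF genes were read next. The 10 genes listed by the study as altering drought resistance were taken by it from Module 1 of its network, a module formed partly on these libraries and on how the plants differed between 0 and 1 HAT, so their direction at 1 HAT is no independent evidence about drought TFs. Of them, 8 had at least 5 FPKM, and all 8 had lower values in erf71, 6 of them by at least 2-fold. Over all genes compared, 48.8% had lower values in erf71 and 8.48% were at least 2-fold lower. Their median log2 ratio was -1.45 at 1 HAT, against 0.02 over all genes compared. At 0 and 6 HAT their medians were 0.22 and 0.14, and 0 of the 8 was past 2-fold in either direction. Of all genes with at least 5 FPKM at those times, 7.09% and 7.11% were past 2-fold. A count of 0 among 8 genes is near those shares.

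OsbHLH148 (Os03g0741100), a bHLH TF that acts in jasmonate signalling together with JAZ proteins in rice, differed most. It had 10.1, 38.5, and 205 FPKM in erf71 at 0, 1, and 6 HAT, against 7.95, 443, and 165 FPKM in WT. The WT library of 1 HAT was the highest of the 6, and erf71 was 11.5-fold lower at that time only. OsJAZ2 (Os03g0180900), a member of the JAZ family of jasmonate repressors, had 11.1, 83.3, and 430 FPKM in erf71, against 15.5, 374, and 375 FPKM in WT. WT was at its level of 6 HAT by 1 HAT, whereas erf71 was 4.48-fold lower than WT at 1 HAT and slightly higher at 6 HAT.

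OsAP59 (Os02g0654700), an AP2/ERF factor, had 6.03, 18.3, and 37.5 FPKM in erf71 and 9.04, 193, and 41.7 FPKM in WT, a 10.6-fold lower level in erf71 at 1 HAT. Its relative OsAP37 (Os01g0797600) had 51.7 FPKM in erf71 and 77.05 FPKM in WT at 1 HAT, a log2 ratio of -0.57 that did not reach 2-fold. OsERF103 (Os02g0764700), a further AP2/ERF gene, had 3.73 FPKM in erf71 and 17.3 FPKM in WT at 1 HAT, and at 6 HAT it had 47.6 FPKM in erf71 and 42.9 FPKM in WT. OsDREB1F (Os01g0968800) was too weak to be compared, since it was listed at 0 in erf71 and at 0.93 FPKM in WT at 1 HAT.

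SNAC1 (Os03g0815100), a NAC factor known from guard cells, had 46.3, 117, and 1053 FPKM in erf71 at 0, 1, and 6 HAT, against 44.0, 491, and 1010 FPKM in WT. Only the values of 1 HAT lay apart, with erf71 4.20-fold lower. ONAC132 (Os12g0123800) was weaker but showed the same order at 1 HAT, with 3.15 FPKM in erf71 and 7.98 FPKM in WT. The NAC genes were not uniform: the log2 ratio was -0.37 for OsNAC5 (Os11g0184900) and -0.18 for ONAC039 (Os03g0327100), and ONAC045 (Os11g0127600) stayed under 5 FPKM with 2.48 FPKM in erf71 and 2.49 FPKM in WT.

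The 3 C2H2 zinc finger genes among the annotated TFs had lower values in erf71 at 1 HAT as well. ZFP182 (Os03g0820300) had 43.2 FPKM in erf71 and 102 FPKM in WT at 1 HAT, and ZFP252 (Os12g0583700) had 4.85 FPKM in erf71 and 15.6 FPKM in WT. ZFP15 (Os03g0820400) had 6.77, 19.55, and 235 FPKM in erf71 at 0, 1, and 6 HAT, against 1.47, 101, and 198 FPKM in WT. Erf71 was thus the higher of the pair at 0 HAT, 5.18-fold lower at 1 HAT, and close to WT at 6 HAT.

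OsWRKY45 (Os05g0322900), a WRKY factor of salicylate-dependent defence, had 65.7, 105, and 67.0 FPKM in erf71, against 40.5, 214, and 35.4 FPKM in WT. It was lower in erf71 at 1 HAT by a log2 ratio of -1.02, which lies at the 2-fold line and passes below it under 1 of the scalings tried, whereas at 0 and 6 HAT its ratios were 0.70 and 0.92 in favour of erf71.

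**Figure D3:**
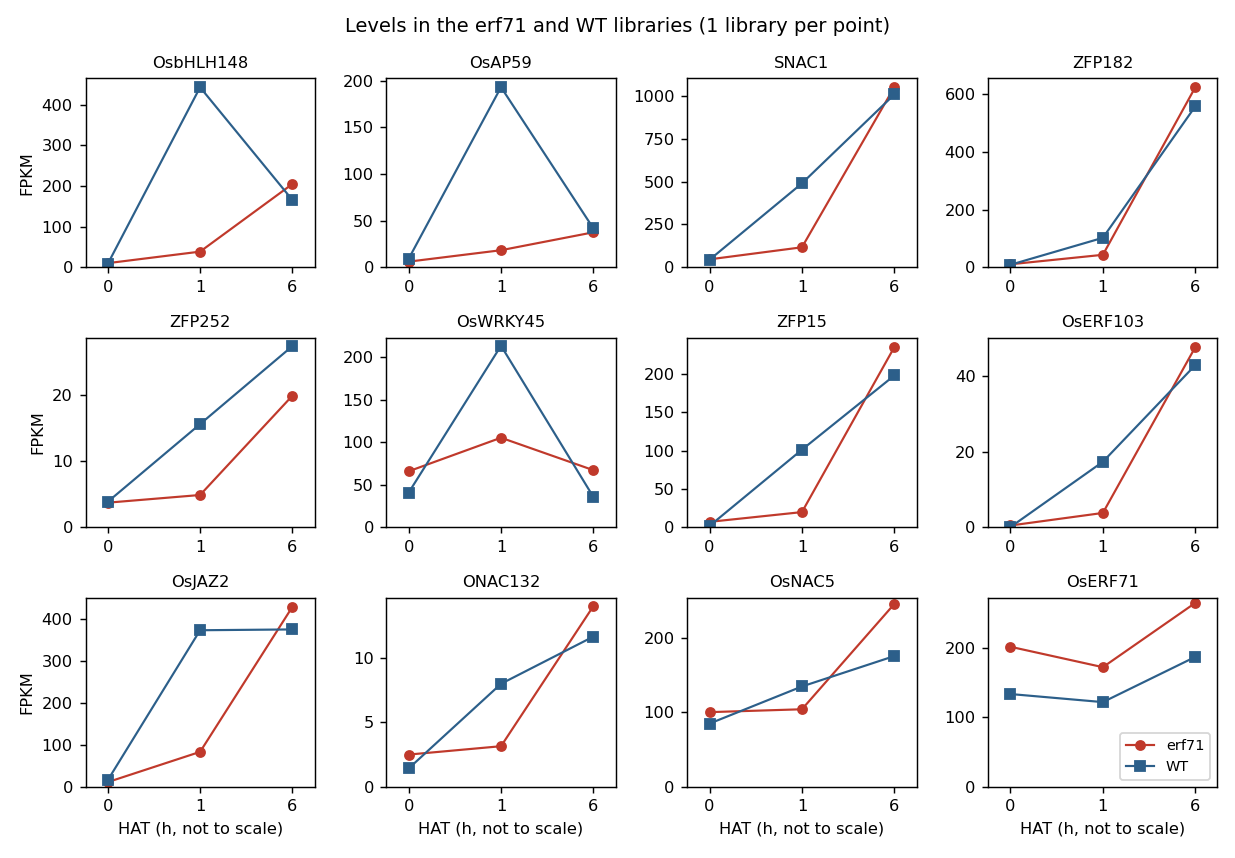
Levels of 12 genes (FPKM, linear axes from 0, 1 library per point) in erf71 (red circles) and WT (blue squares) at 0, 1, and 6 HAT, with times evenly spaced. At 1 HAT the erf71 point lies below the WT point in each panel but that of OsERF71, and in OsbHLH148, OsAP59, and OsWRKY45 the WT point of 1 HAT is the highest of the panel.

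Further TF genes of that module were picked from RT-PCR as being less induced in erf71, so they were chosen for the pattern counted here and their count is only a description. All 8 of them had at least 5 FPKM, and 4 were at least 2-fold lower in erf71 at 1 HAT while 0 was 2-fold higher, against 8.48% and 6.06% of all genes compared. At 0 HAT, with no minimum level applied, 3 of the 8 had a log2 ratio past 2-fold in the other direction. They were ZFP15 (2.13), Os04g0676700 (1.12), and OsERF103. OsERF103 was far under 5 FPKM, with 0.41 FPKM in erf71 and WT listed at 0. Of all genes with at least 5 FPKM at 0 HAT, 3.12% were at least 2-fold higher. At 6 HAT 0 of the 8 was past 2-fold, against 7.11% of the genes with at least 5 FPKM then. Besides OsERF103, OsJAZ2, ZFP15, and ONAC132, Os06g0670300 had 9.76 FPKM in erf71 and 17.4 FPKM in WT, a log2 ratio of -0.83. OsC3H32 (Os04g0671800), a zinc finger gene of the C3H type, was level with 26.5 FPKM in erf71 and 26.4 FPKM in WT, and the log2 ratio of Os04g0676700 was 0.11.

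The TFs that sit as hubs in the network of the study showed smaller differences. Of 18 hub genes, OsERF71 and Os04g0676700 included, 15 had at least 5 FPKM, 10 of them had a ratio above 0 and 5 a ratio below 0, and their median log2 ratio was 0.11. Os04g0543500 was the only hub past 2-fold, with 22.7 FPKM in erf71 and 47.6 FPKM in WT, so that the hubs were near the shares over all genes compared (8.48% lower and 6.06% higher). The highest ratio among them was 0.69, for the zinc finger gene Os06g0152200, with 35.4 FPKM in erf71 and 21.96 FPKM in WT. OsWRKY78 (Os07g0583700) had a log2 ratio of 0.27, the WRKY2-like gene Os12g0597700 one of 0.50, and the repressor gene Os11g0544700 one of 0.46. On the lower side, Os03g0711100 had a ratio of -0.62 and the MYBS3-like gene Os10g0561400 one of -0.53.

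**Figure D4:**
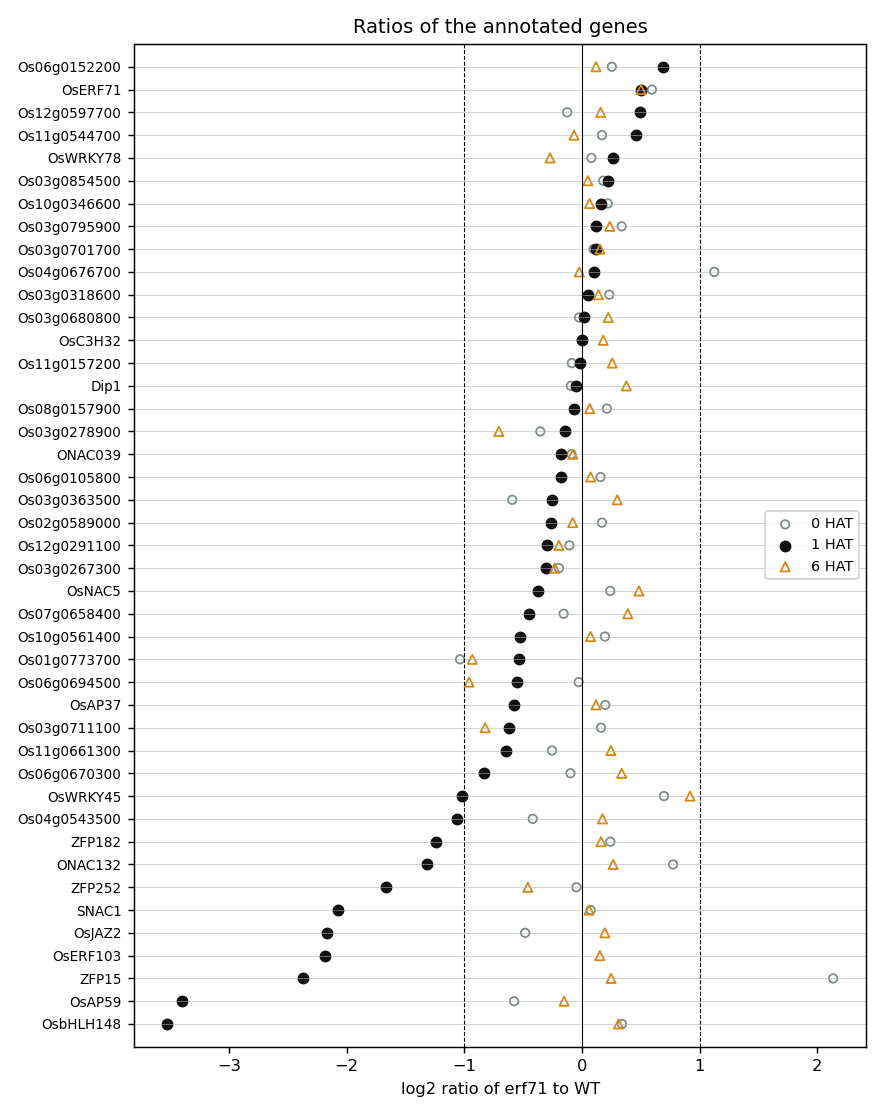
Log2 ratio of erf71 to WT (horizontal axis) for the 43 genes that are annotated in the study and had at least 5 FPKM at 1 HAT, at 0 HAT (open circles), 1 HAT (filled circles), and 6 HAT (triangles). Genes run by their ratio at 1 HAT, dashed lines mark 2-fold, and 11 filled circles lie left of the lower line and 0 right of the upper one. OsERF103 has no circle for 0 HAT because WT was listed at 0.

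The modules of that TF network give a wider view. The study formed them partly on these libraries and on how erf71 and WT differed between 0 and 1 HAT, so a difference between the plants in a module is not independent evidence, and only the listed parts of the modules were used, which for Modules 2, 3, and 5 were minor parts and may not stand for the rest. The lists of the network held 2593 genes in all.

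In Module 1, which the study describes as holding drought-response TFs, 539 of 553 listed genes had at least 5 FPKM. At least 2-fold lower in erf71 were 162 of them (30.1%) and at least 2-fold higher 7 (1.3%), against 8.48% and 6.06% over all genes compared. The median log2 ratio was -0.35, with 69.8% of the genes below 0. Among the TFs of the module, 41 of 103 were lower and 2 higher, with a median of -0.49. Among its nonTF genes, 121 of 436 were lower and 5 higher, with a median of -0.31.

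The 162 lower genes of Module 1 had close medians in erf71 and WT at the other times. Their median level was 8.69, 15.2, and 44.6 FPKM in erf71 at 0, 1, and 6 HAT, against 7.85, 59.6, and 44.4 FPKM in WT. At 0 HAT, 2 of them were also at least 2-fold lower and 3 were higher, and at 6 HAT 5 were lower and 0 higher. Of all 15765 genes, 2.78% were lower and 2.64% higher at 0 HAT, and 2.58% lower and 2.18% higher at 6 HAT. The 2-fold line here used only the libraries of 1 HAT, but the study formed Module 1 with those of 0 and 6 HAT as well. The closeness of the plants at 0 and 6 HAT is therefore not independent evidence. For the 41 lower TFs the medians were 6.77, 14.2, and 37.8 FPKM in erf71 and 5.62, 62.0, and 38.0 FPKM in WT.

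Several TFs of Module 1 that the study does not name differed about as widely as OsbHLH148. Os06g0649000 had 1.71, 9.39, and 27.03 FPKM in erf71, against 1.48, 162, and 26.7 FPKM in WT. Os04g0301500 had 0.92, 19.7, and 15.6 FPKM in erf71, against 0.50, 203, and 27.2 FPKM in WT. In both, the WT value of 1 HAT alone was high. The TF Os09g0522000 was listed at 0 in all 3 erf71 libraries and in WT at 0 HAT, with 14.4 FPKM in WT at 1 HAT and 0.44 FPKM at 6 HAT. Among nonTF genes, Os01g0699500 had 4.65 FPKM in erf71 and 119 FPKM in WT at 1 HAT, and at 6 HAT it had 59.0 FPKM in erf71 and 75.8 FPKM in WT. The strongest gene of the module, Os01g0314800, had 706 FPKM in erf71 and 1486 FPKM in WT at 1 HAT.

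A few TFs of Module 1 had the opposite order. Os02g0139000 had 15.7 FPKM in erf71 and 7.10 FPKM in WT at 1 HAT, and Os07g0684800 had 58.35 FPKM in erf71 and 27.2 FPKM in WT. Both were close between the plants at 0 and 6 HAT, with log2 ratios between -0.27 and 0.37.

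Module 3, annotated with the response to oxidative stress, had the highest median ratio of the modules. Only 43 of its genes were listed, a small part of the module. Of the 29 listed genes with at least 5 FPKM, 23 were at least 2-fold higher (79.3%) and 0 lower, and all 29 had a ratio above 0, with a median log2 ratio of 1.34. The 23 higher genes had median levels of 25.5, 18.3, and 2.86 FPKM in erf71 at 0, 1, and 6 HAT, against 26.5, 6.24, and 2.24 FPKM in WT. The medians of the plants were thus close at 0 and at 6 HAT. At 0 HAT, 2 of the 23 were at least 2-fold higher and 2 lower, and at 6 HAT 4 were higher and 0 lower. Of all 15765 genes, 2.64% were higher and 2.78% lower at 0 HAT, and 2.18% higher and 2.58% lower at 6 HAT. The libraries of 0 and 6 HAT had no part in the 2-fold line here, but the study used them in forming the module. These medians and counts are therefore not independent evidence.

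Os03g0107300 had the highest ratio in Module 3, with 241, 122, and 4.66 FPKM in erf71, against 203, 8.35, and 3.16 FPKM in WT. It is also 1 of the 6 root markers, which were higher in erf71 at 1 HAT as a sum. Os12g0567800 was the next, with 1132, 1224, and 173 FPKM in erf71, against 312, 140, and 76.4 FPKM in WT, and here erf71 was higher at all 3 times. The TF Os10g0390800 had 13.6 FPKM in erf71 and 2.58 FPKM in WT at 1 HAT.

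**Figure D5:**
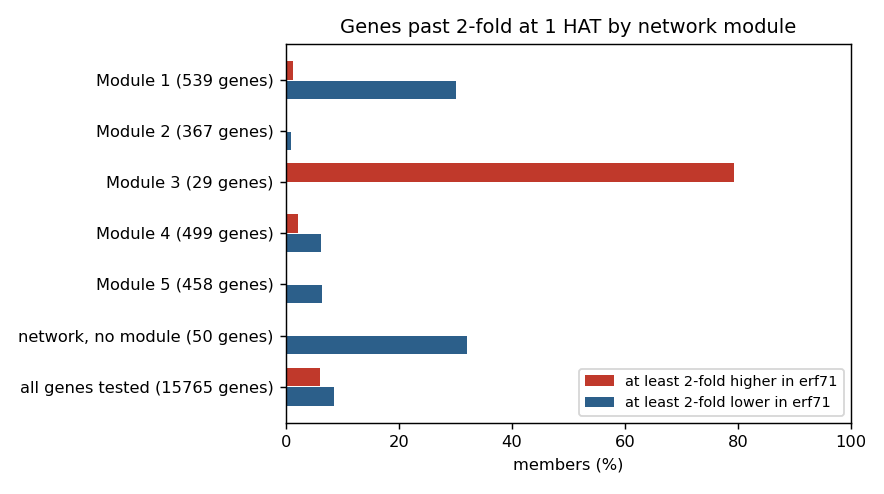
Share of genes (horizontal axis, %) at least 2-fold higher (red) and at least 2-fold lower (blue) in erf71 relative to WT, at 1 HAT, for the listed genes of each network module with at least 5 FPKM and for all genes compared. Module 3 stands out with 79.3% higher, Module 1 with 30.1% lower, and the 50 network genes without a module with 32.0% lower, against 6.06% higher and 8.48% lower over all genes.

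Module 5, described by the study as genes of photosynthesis and energy, had a small but broad difference. Of the 458 listed genes with at least 5 FPKM, 29 were at least 2-fold lower in erf71 (6.33%), which is under the share over all genes compared, and 0 were higher. Yet 400 of them (87.3%) had a ratio below 0, against 48.8% of all genes, and the median log2 ratio was -0.43. The median level of the module was 54.7, 40.1, and 9.59 FPKM in erf71 at 0, 1, and 6 HAT, against 54.7, 54.9, and 13.0 FPKM in WT. Of the same 458 genes, with no minimum level applied at the other times, 0 were at least 2-fold lower and 1 higher at 0 HAT, and 62 were lower and 3 higher at 6 HAT, so more of them were past 2-fold at 6 HAT than at 1 HAT. Of all 15765 genes counted in that way, 513 were lower and 546 higher at 0 HAT, and 698 were lower and 550 higher at 6 HAT. The 2 leaf markers were also lower in erf71 at 1 HAT, but both stand in modules of the network, Os12g0274700 in Module 5.

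The annotated genes of photosynthesis and energy had the same order. The study names them as examples from Module 5, so their direction at 1 HAT is no independent evidence. Of 11 such genes, 9 had at least 5 FPKM, all 9 had lower values in erf71 at 1 HAT, and 0 reached 2-fold. Among all genes compared, 48.8% had lower values in erf71 and 8.48% were at least 2-fold lower. The Rubisco small subunit gene Os12g0291100, for part of the enzyme that fixes carbon dioxide, had 8588, 6544, and 700.1 FPKM in erf71 at 0, 1, and 6 HAT, against 9251, 8043, and 802 FPKM in WT. The gene of the photosystem II W protein, Os01g0773700, had 2147, 1760, and 265 FPKM in erf71, against 4402, 2544, and 507 FPKM in WT, and was lower in erf71 at every time. Ferredoxin-dependent glutamate synthase (Os07g0658400), which assimilates ammonium in leaves, had 598 FPKM in erf71 and 815 FPKM in WT at 1 HAT. Fructose-1,6-bisphosphatase (Os03g0267300) had 224 FPKM in erf71 and 276 FPKM in WT, and Os06g0694500, annotated as a nitrogen fixation like protein, had 21.4 FPKM in erf71 and 31.4 FPKM in WT.

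Module 2, which the study relates to translation, had few genes past 2-fold in its listed part. Of its 367 genes, 0 were at least 2-fold higher and 3 at least 2-fold lower (0.817%), against 6.06% and 8.48% over all genes compared. The median log2 ratio was 0.09. Its ratios leaned slightly higher in erf71, with 63.2% above 0, against 51.2% over all genes compared. Module 4 holds many genes of cell division. It had 11 of 499 listed genes higher (2.2%) and 31 lower (6.21%), both under the shares of 6.06% and 8.48% over all genes compared. Its median was -0.17 at 1 HAT and lower, at -0.46, at 0 HAT. At 1 HAT, 64.3% of these genes had a ratio below 0, against 48.8% of all genes compared. A further 50 genes stood in the network without a module number. At 1 HAT, 16 of them were at least 2-fold lower in erf71 (32.0%, against 8.48% over all genes compared). The median ratios of the 50 genes were -0.56, -0.84, and -0.41 at 0, 1, and 6 HAT. Among these, Os08g0460000 had 47.0, 18.6, and 1.68 FPKM in erf71, against 184, 214, and 7.57 FPKM in WT.

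Genes past 2-fold at 1 HAT were then followed to the other times, whose libraries were not used to choose them. The 1337 lower genes had median levels of 5.66, 6.10, and 7.87 FPKM in erf71 at 0, 1, and 6 HAT, against 6.40, 20.7, and 9.83 FPKM in WT. The values of 1 HAT are those that chose the genes. Of these genes, 112 were also at least 2-fold lower at 0 HAT (8.38% of them and 17.7% of the genes lower at 0 HAT), and 114 were lower at 6 HAT (8.53% of them and 21.8% of the genes lower at 6 HAT). Of all 15765 genes, 2.78% were lower at 0 HAT and 2.58% at 6 HAT. In the other direction, 64 of the 1337 were at least 2-fold higher at 0 HAT (4.79%) and 30 at 6 HAT (2.24%). The shares of all 15765 genes in that direction were 2.64% and 2.18%.

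The 956 higher genes had median levels of 17.1, 16.8, and 8.30 FPKM in erf71, against 14.05, 5.58, and 5.46 FPKM in WT. Here too the values of 1 HAT chose the genes. At 0 HAT, 149 of them were also at least 2-fold higher (15.6% of them and 30.0% of the genes higher at 0 HAT), and at 6 HAT 149 were higher (15.6% of them and 34.7% of the genes higher at 6 HAT). Of all 15765 genes, 2.64% were higher at 0 HAT and 2.18% at 6 HAT. In the other direction, 70 of the 956 were at least 2-fold lower at 0 HAT (7.32%) and 32 at 6 HAT (3.35%). The shares of all 15765 genes in that direction were 2.78% and 2.58%. Over all 3 times, 48 genes were at least 2-fold higher and 15 at least 2-fold lower.

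The most extreme ratios came from genes listed at 0. Of the 15 highest ratios, 13 had a WT value of 0, and of the 15 lowest, 13 had an erf71 value of 0, and an exact 0 in such a table can be a failed estimate. When 1 FPKM was required in both libraries, 15581 genes were left, of which 883 were at least 2-fold higher and 1226 lower. The highest ratio there belonged to Os12g0571000, with 1766, 1489, and 299 FPKM in erf71, against 379, 32.2, and 71.25 FPKM in WT. The lowest belonged to Os01g0597600, with 0.32, 2.28, and 4.24 FPKM in erf71, against 0.60, 117, and 5.67 FPKM in WT. Os03g0437200 had 7.40 FPKM in erf71 and 161 FPKM in WT at 1 HAT. Os07g0511400 differed at every time, with 166, 179, and 72.6 FPKM in erf71, against 0.59, 0.68, and 1.46 FPKM in WT. These 4 genes carry no annotation in the sources used here.

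Genes near the limit of 5 FPKM were counted on both sides of it. Just inside it were 563 genes whose higher value was 5 to 5.5 FPKM. Of them, 42 were at least 2-fold higher (7.46%) and 58 lower (10.3%) in erf71. Just outside it, 610 genes with 4.5 to 5 FPKM had 57 higher (9.34%) and 61 lower, the share lower being close to that inside. The shares on both sides of the limit were above those over all genes compared, 6.06% higher and 8.48% lower.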

How the data were processed

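Total RNA of whole plants was made into poly(A) libraries, and per the labels the authors' processing named CASAVA 1.8.2, TopHat2, Cufflinks, and Bowtie with the genome build IRGSP-1.0. The deposited FPKM values were given per gene by Cufflinks, as the methods of the study state, with 1 library per plant type and time. Without counts no error could be assigned to a gene, so genes were described by levels and by the log2 ratio of erf71 to WT after adding 0.1 FPKM, over genes with at least 5 FPKM in 1 or both libraries.

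The labels name an AP2 transgenic, taken to be erf71 because OsERF71 is an AP2/ERF gene. The labels give Oryza sativa Indica Group as the organism, whereas Nipponbare is a japonica cultivar. Of the 37869 identifiers, 1 was found in the RefSeq gene table, so gene names and roles came from the study's text, and module numbers and TF flags from its supplementary lists, read in part. Gene lists planned from reference descriptions could therefore not be built and were replaced by these. Markers planned by description were left out likewise. The genes named were OsERF71, Dip1, the neighbours, drought, RT-PCR, and hub TFs of the study, its examples of photosynthesis genes, the genes with extreme or lasting ratios, and in each module those with the largest ratio or highest level. The photosynthesis examples, the TFs of Module 1 shown beyond these, and the extremes among genes with at least 1 FPKM in both libraries were chosen after their values were seen. Members and lists were chosen with earlier results of these data known. The small RNA and lincRNA tables and the Vandana columns were not used here. The counting code was run on simulated data with planted changes larger than the 2-fold line and little noise. That run checks the code only and says nothing about the error of the real libraries. Python 3.11.15, numpy 2.4.6, pandas 2.3.3, scipy 1.17.1, and matplotlib 3.10.9 were used.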

Additional observations from a re-analysis of the deposited data

Results flagged for a closer look

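Some genes had opposite orders of the plants at different times, with 1 library behind each value, and these differences were not tested. ZFP15 was higher in erf71 at 0 HAT, with a log2 ratio of 2.13, and lower at 1 HAT, with one of -2.37. At least 2-fold higher in erf71 at 0 HAT and at least 2-fold lower at 1 HAT were 64 genes, and 70 genes had the reverse order. The 64 were 4.79% of the genes lower at 1 HAT, against 2.64% higher at 0 HAT over all 15765 genes. The 70 were 7.32% of the genes higher at 1 HAT, against 2.78% lower at 0 HAT over all genes. Between 6 and 1 HAT, 30 genes were higher at 6 HAT and lower at 1 HAT, and 32 were lower at 6 HAT and higher at 1 HAT. These were 2.24% and 3.35% of the lists of 1 HAT, near the shares of 2.18% and 2.58% over all genes.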

How the results depend on the processing

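No paired analysis was possible because each plant type and time had 1 library and the columns carry no replicate numbers. For the same reason no library could be left out, so the error of every difference above is unknown. Depth was read only in relative terms and only near equality of the libraries. The counts moved with the minimum level and with the fold threshold. With a minimum of 1 FPKM, 1920 genes were at least 2-fold higher and 2410 lower in erf71 at 1 HAT, and 652 and 676 were past 2-fold in the same direction at 0 and 6 HAT. Module 4 then had 24 genes higher and 64 lower, and Module 2 had 1 higher. With a minimum of 20 FPKM, the corresponding counts were 417, 678, 111, and 92, with 9 genes of Module 3 higher, 3 higher and 5 lower in Module 4, and 1 lower in Module 2, and the median of Module 4 turned to 0.0026. With no minimum they were 3288, 3756, 1295, and 1445, with 27 higher and 75 lower in Module 4, 3 higher in Module 2, 1 lower in Module 3, and 1 higher in Module 5. At 4-fold, 248 genes were higher and 420 lower, 44 and 55 were past it in the same direction at 0 and 6 HAT, Module 1 had 1 higher and 66 lower, Module 3 had 7 higher, Module 4 had 1 each way, and Module 5 had 0 lower. The median log2 ratio turned to -0.014 when libraries were scaled by the median ratio and to -0.026 when scaled to equal sums, and 1 gene of Module 5 was 2-fold higher when they were scaled by the upper quartile. Of the genes past 2-fold, 41.7% were higher in erf71 as deposited and 38.5% to 44.5% under the scalings. A pseudocount of 1 FPKM, a minimum of 5 FPKM on average, and at least 1 FPKM in both libraries (chosen after the data were seen) moved none of these counts by over 1.5 times. Of 43 annotated genes under 4 settings, 171 of 172 ratios kept their side of the 2-fold line, the exception being OsWRKY45 at -0.98 when scaled by the upper quartile. The cause of these shifts was not tested, apart from the number of genes that each minimum or threshold admits.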
